A study of Xenopus laevis with 12 samples.

Results

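The nodal and lefty ligands were represented by 12 of the 32539 probe sets tested, 10 for nodal genes and 2 for lefty genes. They were taken as every probe set whose annotated symbol starts with nodal or lefty, with nodal modulators (nomo) left out. Of these, 9 name a single gene, 2 name several nodal genes, and 1 is annotated xnr5-6, which the gene table of assembly Xenopus_laevis_v10.1 lists as a synonym of nodal5.L. All 12 are described, and no filter on low values was applied.

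The series profiled whole *Xenopus laevis* embryos on 12 arrays to find genes affected when fam46a is depleted. Fam46a (also tent5a) belongs to the FAM46 family of noncanonical poly(A) polymerases. All embryos came from in vitro fertilization, were cultured at 22 °C and were injected at the 4-cell stage, in the animal pole of all cells, with morpholino oligonucleotides, antisense reagents that stop an RNA from being translated or spliced. The 3 injections were the control oligonucleotide CoMO at 10 ng per cell, Fam46a-MO1 (MO1 below) at 10 ng per cell, and Fam46a-MO2 with Fam46a-MO3 (MO2+MO3 below) at 7 ng of each per cell. RNA was taken from blastulae (stage 8) and from embryos at the onset of gastrulation (stage 10.5), with 2 biological replicates per injection and stage. The labels name no genotype or strain and give no count of embryos per sample. The labels do not say how much oligonucleotide reached the vegetal cells, where several nodal genes are first transcribed. Whole embryos were measured, so fewer cells that make a transcript and less of it per cell cannot be told apart.

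Nodal proteins are secreted ligands of the TGF-beta superfamily. They bind activin receptors together with an EGF-CFC co-receptor, and the receptors phosphorylate Smad2 and Smad3, which enter the nucleus with Smad4 and act with partners such as FoxH1 to switch on mesoderm and endoderm genes. Lefty proteins are divergent members of the same superfamily that block nodal signalling; they are themselves induced by it and so form a negative feedback loop. The allotetraploid frog carries several nodal genes, and the suffixes .L and .S mark copies on the long and the short subgenome.

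The members fall into groups by position and role. In the v10.1 gene table nodal5.L, nodal5.2.L and nodal6.L are direct neighbours. A further 45 protein-coding genes along the same chromosome stand nodal3.1.L, nodal3.2.L, nodal2.L and nodal1.L, with 1 gene between the first pair, 2 between nodal3.2.L and nodal2.L, and 0 between nodal2.L and nodal1.L. The nodal5 and nodal6 genes are the early zygotic nodals, switched on in vegetal cells by maternal VegT and beta-catenin; nodal1 and nodal2 are mesendoderm inducers; nodal.L (formerly Xnr4) is transcribed in the organizer region; and nodal3 is a Wnt target of the organizer that, unlike the others, does not induce mesoderm. The shared probe set naming nodal5.L, xnr5-6 and nodal5.2.L is called the nodal5 shared set below, and the one naming nodal3.1.L and nodal3.2.L the nodal3 shared set. Neither can separate the copies it names, and a probe set of 1 copy may also bind the other. The genes nodal.S and nodal1.S of the gene table were not analysed here.

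The deposited values are log2 values centred so that, for every probe set, the 6 arrays of a stage have a median within 1e-06 of 0. They hold differences between arrays of the same stage, not levels, so stages and genes were not compared in level. From the rounding of the deposited numbers, an interval for the value of the lowest array before centring could still be recovered. At stage 10.5 this interval was 4 to 8 on the log2 scale for nodal1.L, nodal2.L, nodal.L, nodal3.1.L, both shared sets and both lefty copies. It was 2 to 4 for nodal6.L and nodal6.S and 1 to 2 for nodal3.2.L and the xnr5-6 probe set. At stage 8 only nodal1.L, nodal3.1.L and the shared sets were at 4 to 8, and the other members had lowest arrays below 4, as did all 6 of 6 negative-control (TrpnX) probe sets at both stages. Most nodal and lefty probe sets therefore had at least 1 array in the range of the negative controls at stage 8.

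A moderated linear model (limma) was fitted to all 12 arrays, and p-values were adjusted by Benjamini-Hochberg over all 32539 probe sets; a probe set is called where that p is under 0.05. A change is printed with its standard error, on the log2 scale and from 2 arrays per group. The labels call the replicates biological but do not say what a shared replicate number means. Arrays with the same number deviated together at each stage, so a second fit with the number as a block is given where it alters a call. Both reagents were compared with the same CoMO arrays, so their changes are not independent of each other. The plot of every array shows the values behind the comparisons.

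**Figure D1:**
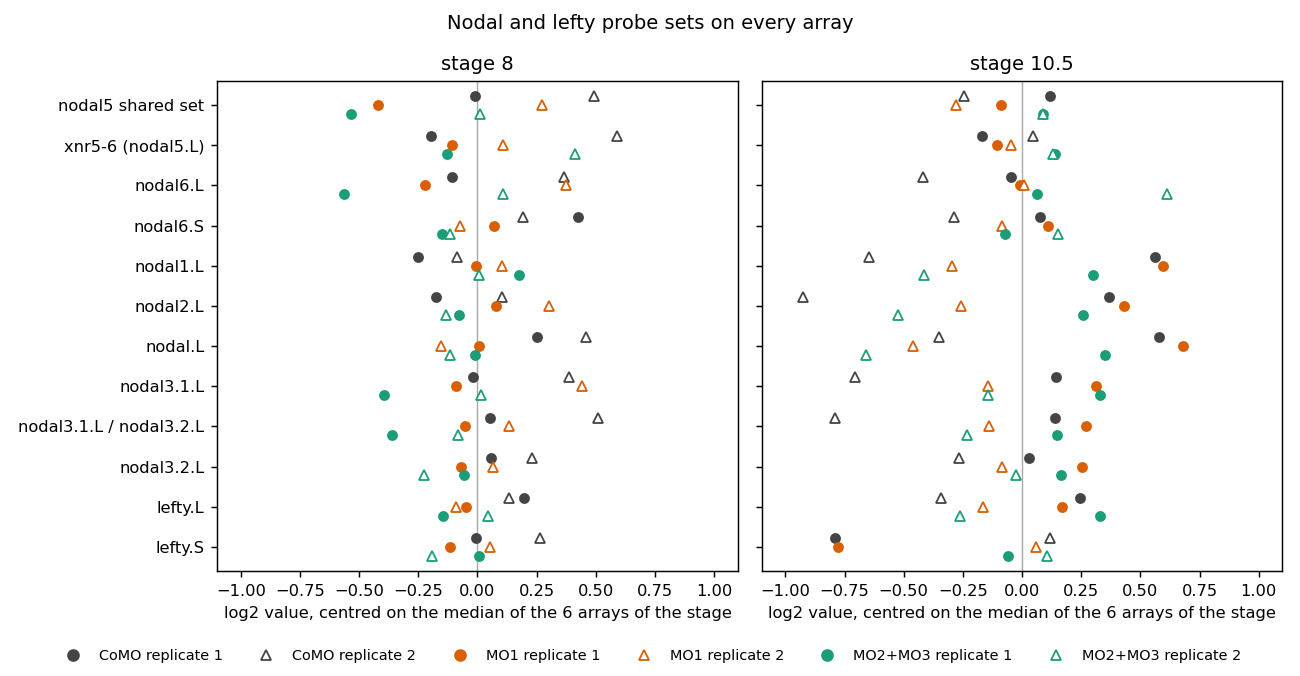
Centred log2 value of each of the 12 nodal and lefty probe sets (rows) on each of the 6 arrays of stage 8 (left) and stage 10.5 (right); colour gives the injection, filled circles replicate 1 and open triangles replicate 2. At stage 10.5 the filled and open symbols separate whichever injection the embryos received for several members. Replicate 1 is higher for nodal1.L, nodal2.L, nodal.L, the nodal3 probe sets and lefty.L, and lower for lefty.S. Of all probe sets 15.7% separate with replicate 1 higher and 15.1% with replicate 1 lower.

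At stage 8 none of the 12 probe sets was called in either reagent. Their median change was -0.18 in MO1 and -0.32 in MO2+MO3, against medians of 0.01 and 0.01 over all probe sets. In MO1 2 of the 12 changes were above 0, and in MO2+MO3 1 of 12 was. Over all probe sets 0.00615% were called in MO1 and 0.0% in MO2+MO3. With so few called, a count of 0 among 12 members could hardly have differed and says little about them. At an unadjusted p under 0.05 the limma fit counted 0 members in MO1 and 1 in MO2+MO3, and with the replicate block 2 and 6, again with 0 called. Of all 32539 probe sets, that threshold counted 628 in MO1 and 763 in MO2+MO3 without the block, and 2666 and 3544 with it. With the block 0.123% and 0.141% of all probe sets were called. For the mean of both reagents 0 members were called as well, where 0.0% of all probe sets were without the block and 0.0522% with it.

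Among the early zygotic nodals at stage 8, the nodal5 shared set stood at -0.01 and 0.49 in CoMO replicates 1 and 2, -0.42 and 0.27 in MO1, and -0.53 and 0.01 in MO2+MO3. Within each replicate number CoMO was highest, yet the groups overlapped. MO1 differed from CoMO by -0.31 ± 0.28 and MO2+MO3 by -0.50 ± 0.28 (limma, adjusted p = 1 for both). The xnr5-6 probe set, which lay near the negative controls, stood at -0.19 and 0.59 in CoMO, -0.11 and 0.11 in MO1, and -0.13 and 0.41 in MO2+MO3. Its 3 groups overlapped, and its changes were -0.20 ± 0.26 and -0.06 ± 0.26.

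For nodal6.S, the short-subgenome copy of the second early nodal, CoMO stood at 0.42 and 0.19, MO1 at 0.07 and -0.07, and MO2+MO3 at -0.15 and -0.11. All 4 arrays of the reagents lay below both CoMO arrays. The change of -0.44 ± 0.16 in MO2+MO3 had an unadjusted p of 0.022 and an adjusted p of 1 in limma, and that in MO1 was -0.31 ± 0.16. The long copy nodal6.L stood at -0.11 and 0.37 in CoMO, -0.22 and 0.37 in MO1, and -0.56 and 0.11 in MO2+MO3. Its CoMO and MO1 values nearly coincided within each replicate number, and its changes were -0.06 ± 0.31 and -0.36 ± 0.31.

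The mesendoderm inducer nodal1.L stood at -0.25 and -0.08 in CoMO, -0.01 and 0.10 in MO1, and 0.18 and 0.01 in MO2+MO3 at stage 8. It was the 1 member of 12 whose reagent arrays all lay above both CoMO arrays, as 5.75% of all probe sets did. Its changes of 0.22 ± 0.42 and 0.26 ± 0.42 were smaller than their errors, which are pooled over both stages. The standard deviation of nodal1.L within an injection was 0.08 to 0.12 at stage 8 and 0.50 to 0.86 at stage 10.5. Its direct neighbour nodal2.L, another mesendoderm inducer, ranged over the 6 arrays from -0.17 to 0.30. Each reagent overlapped CoMO on it. On nodal2.L MO1 differed from CoMO by 0.23 ± 0.43 and MO2+MO3 by -0.07 ± 0.43.

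The organizer gene nodal.L stood at 0.25 and 0.46 in CoMO, 0.01 and -0.15 in MO1, and -0.01 and -0.11 in MO2+MO3. Every reagent array lay below both CoMO arrays, and the 2 reagents overlapped each other. The changes were -0.43 ± 0.45 and -0.42 ± 0.45, with limma adjusted p of 1. The error of this probe set comes largely from stage 10.5, where its replicates were far apart; with the replicate block the errors were 0.11 for both changes, and the adjusted p of 0.30 and 0.23 still missed the threshold.

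For nodal3.1.L at stage 8, CoMO stood at -0.02 and 0.39, MO1 at -0.09 and 0.44, and MO2+MO3 at -0.40 and 0.02. MO1 followed CoMO within each replicate number, and MO2+MO3 lay lower in both. The changes were -0.01 ± 0.34 and -0.37 ± 0.34. The nodal3 shared set stood at 0.05 and 0.51 in CoMO, -0.05 and 0.13 in MO1, and -0.36 and -0.08 in MO2+MO3, with changes of -0.24 ± 0.31 and -0.50 ± 0.31. Both MO2+MO3 arrays lay below both CoMO arrays on this probe set. The nodal3.2.L probe set, near the negative controls at both stages, stood at 0.06 and 0.23 in CoMO, -0.07 and 0.06 in MO1, and -0.06 and -0.22 in MO2+MO3, with changes of -0.15 ± 0.16 and -0.28 ± 0.16. It was likewise without overlap in MO2+MO3. Without overlap and lower there were 5 of 12 members, against 12% of all probe sets. Apart from the nodal3 shared set, which also names nodal3.2.L, the lowest array of each of these was below 4 at this stage.

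Of the antagonists, lefty.L stood at 0.19 and 0.13 in CoMO, -0.05 and -0.09 in MO1, and -0.14 and 0.05 in MO2+MO3. All 4 reagent arrays lay below CoMO, while the changes of -0.23 ± 0.24 and -0.21 ± 0.24 were smaller than their errors. These errors are pooled over both stages. The standard deviation of lefty.L within an injection was 0.03 to 0.13 at stage 8 and 0.24 to 0.42 at stage 10.5. Its copy lefty.S stood at -0.01 and 0.26 in CoMO, -0.11 and 0.05 in MO1, and 0.01 and -0.19 in MO2+MO3, with overlapping groups and changes of -0.16 ± 0.33 and -0.22 ± 0.33. In all, 3 of 12 members (nodal.L, nodal6.S and lefty.L) had their 4 reagent arrays below both CoMO arrays, where 3.76% of all probe sets did, and none of the 3 was called. The lowest stage 8 array of each of these 3 was at 2 to 4 before centring, in the range of the negative controls.

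At stage 10.5 none of the 12 was called without the block in MO1 or in MO2+MO3, where 0.916% and 0.907% of all probe sets were. At an unadjusted p under 0.05 limma counted 0 members in each, against 3535 and 3698 of all 32539 probe sets. With the replicate block that threshold counted 3 members in each, against 9441 and 9583 of all probe sets. The direction of the median differed from stage 8: it was 0.16 in MO1 and 0.17 in MO2+MO3, against 0.02 and 0.00 over all probe sets, with 8 and 10 of the 12 changes above 0. For the mean of both reagents 11 of 12 changes were above 0, the exception being nodal.L, and 0 were called where 0.996% of all probe sets were. All 12 changes share the same CoMO arrays. Without CoMO replicate 2 of stage 10.5, and without the block, nodal1.L, nodal2.L, nodal6.S, nodal3.1.L, lefty.L and both shared sets turned below 0. The changes of lefty.S, nodal6.L, nodal3.2.L and xnr5-6 stayed above 0.

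With the replicate block, nodal3.1.L rose in MO2+MO3, the 1 member of 12 called. Of all probe sets 16.8% were called, 9.02% higher and 7.77% lower. Beside that background, a count of 1 of 12 says little about the members. In MO1, where 16.2% of all probe sets were called with the block, 0 members were, and for the mean of both reagents 1 of 12 was, higher, against 19.1% of all probe sets (10.0% higher and 9.1% lower). CoMO of nodal3.1.L stood at 0.14 and -0.71, MO1 at 0.31 and -0.14, and MO2+MO3 at 0.33 and -0.14. Within each replicate number both reagents lay above CoMO: the differences were 0.17 and 0.57 in MO1, and 0.19 and 0.56 in MO2+MO3. Across replicate numbers the groups overlapped, because replicate 2 of every injection lay lower than replicate 1.

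The change of nodal3.1.L in MO2+MO3 was 0.38 ± 0.11 with the block (limma, adjusted p = 0.0485) and 0.38 ± 0.34 without it (adjusted p = 0.84). In MO1 it was 0.37 ± 0.11 with the block (adjusted p = 0.054), and for the mean of both reagents 0.37 ± 0.09 (adjusted p = 0.0265). The MO2+MO3 call was lost on leaving out any of 11 of the 12 arrays, with adjusted p from 0.0597 to 0.38, and was kept only without CoMO replicate 1 of stage 10.5, at 0.57 (0.0241). The value fell to 0.18 (0.38) without CoMO replicate 2 of that stage and to 0.29 (0.309) without MO2+MO3 replicate 2. The call for the mean of both reagents was lost on leaving out 3 of the 12 arrays, replicate 2 of each injection at stage 10.5 (0.0869 to 0.353). With the number as a random block neither was called (adjusted p = 0.159 and 0.102). With the block on the 6 arrays of stage 10.5 alone the adjusted p was 0.0947.

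The other nodal3 probe sets were not called. The nodal3 shared set stood at 0.14 and -0.79 in CoMO, 0.27 and -0.14 in MO1, and 0.15 and -0.23 in MO2+MO3. Again the second CoMO array was the lowest of the 6. With the block it gave 0.39 ± 0.14 for MO1 (limma, adjusted p = 0.097) and 0.28 ± 0.14 for MO2+MO3 (0.22). The nodal3.2.L probe set stood at 0.03 and -0.26 in CoMO, 0.25 and -0.08 in MO1, and 0.16 and -0.03 in MO2+MO3, with changes of 0.20 ± 0.16 and 0.19 ± 0.16 without the block.

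Among the early nodals at stage 10.5, nodal6.L stood at -0.05 and -0.42 in CoMO, -0.01 and 0.01 in MO1, and 0.06 and 0.61 in MO2+MO3. It was the 1 member whose 4 reagent arrays all lay above both CoMO arrays, where 10.4% of all probe sets did, and 0 members lay below both, where 9.34% did. The second MO2+MO3 array stood apart from the other 5. In MO1 it differed from CoMO by 0.23 ± 0.31 (limma, adjusted p = 0.95). The value for MO2+MO3 was 0.57 ± 0.31 (0.59), and with the block it had an adjusted p of 0.063. Its lowest array was in the range of the negative controls.

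The remaining early nodal probe sets differed less at stage 10.5. The nodal5 shared set stood at 0.12 and -0.24 in CoMO, -0.09 and -0.28 in MO1, and 0.09 and 0.09 in MO2+MO3. Each reagent overlapped CoMO. Its changes against CoMO were -0.12 ± 0.28 and 0.15 ± 0.28. The xnr5-6 probe set stood at -0.17 and 0.05 in CoMO, -0.10 and -0.05 in MO1, and 0.14 and 0.13 in MO2+MO3. Both MO2+MO3 arrays lay above CoMO, by 0.20 ± 0.26 on average; 2 of 12 members had this arrangement, a share near the 19.7% of all probe sets. For nodal6.S the 6 arrays ranged from -0.29 to 0.15, with changes of 0.12 ± 0.16 and 0.14 ± 0.16.

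The mesendoderm inducers overlapped fully between injections at stage 10.5. For nodal1.L CoMO stood at 0.56 and -0.65, MO1 at 0.60 and -0.30, and MO2+MO3 at 0.30 and -0.41. For nodal2.L CoMO stood at 0.37 and -0.92, MO1 at 0.43 and -0.26, and MO2+MO3 at 0.26 and -0.53. On both, every replicate 1 array lay above every replicate 2 array, and the spread within an injection exceeded any difference between injections. The changes of nodal1.L were 0.19 ± 0.42 and -0.02 ± 0.42, and those of nodal2.L 0.36 ± 0.43 and 0.14 ± 0.43, with limma adjusted p from 0.94 to 1.

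The organizer gene nodal.L had the same arrangement, with 0.58 and -0.35 in CoMO, 0.68 and -0.46 in MO1, and 0.35 and -0.66 in MO2+MO3. Its changes were -0.01 ± 0.45 and -0.27 ± 0.45. The antagonist lefty.L stood at 0.25 and -0.34 in CoMO, 0.17 and -0.17 in MO1, and 0.33 and -0.26 in MO2+MO3, with changes of 0.05 ± 0.24 and 0.08 ± 0.24. Neither gene was called, and 95% intervals of the changes without the block reached from -1.05 to 1.03 for nodal.L in MO1 and from -0.47 to 0.64 for lefty.L in MO2+MO3. These intervals hold changes of either sign. Their errors are pooled over both stages and so understate the spread at stage 10.5, as do those of nodal1.L and nodal2.L. The standard deviation of nodal.L within an injection was 0.66 to 0.81 at that stage and 0.07 to 0.15 at stage 8.

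The second lefty copy, lefty.S, ran the other way between replicates. It stood at -0.79 and 0.12 in CoMO, -0.78 and 0.06 in MO1, and -0.06 and 0.11 in MO2+MO3. The first CoMO and MO1 arrays were far below the other 4, and the first MO2+MO3 array was not. Its changes were -0.02 ± 0.33 in MO1 and 0.36 ± 0.33 in MO2+MO3, with limma adjusted p of 0.85 for the latter. The difference of lefty.S minus lefty.L at stage 10.5 was -1.04 and 0.46 in CoMO, -0.94 and 0.23 in MO1, and -0.39 and 0.37 in MO2+MO3. It was below 0 on every replicate 1 array and above 0 on every replicate 2 array, whereas at stage 8 it lay between -0.24 and 0.15 with no such split.

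**Figure D2:**
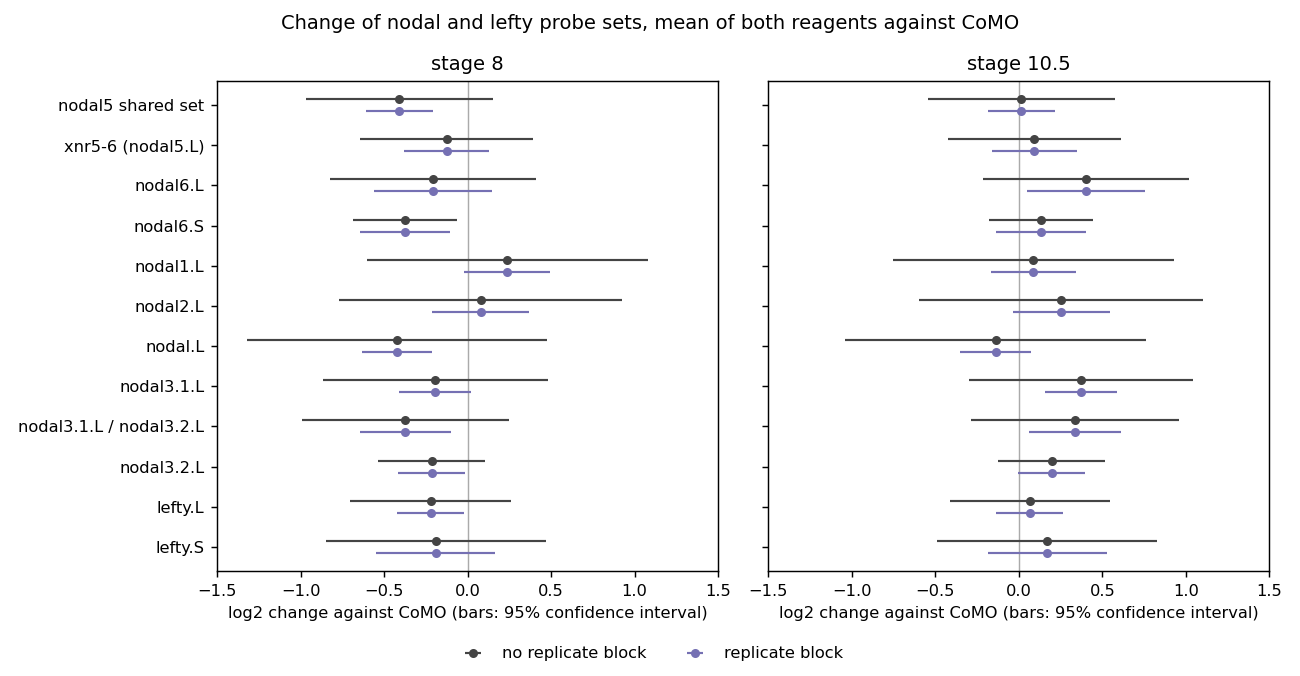
Log2 change of each nodal and lefty probe set for the mean of both reagents against CoMO, at stage 8 (left) and stage 10.5 (right), with 95% confidence intervals from limma without (grey) and with (purple) the replicate block. All intervals without the block but that of nodal6.S at stage 8 cross 0. With the block the intervals of 6 members at stage 8 and 3 at stage 10.5 do not cross 0. Of all 32539 probe sets, 2993 and 10215 had an unadjusted limma p under 0.05 in that fit. After adjustment over all probe sets nodal3.1.L at stage 10.5, 0.37, is the only member called with the block.

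Differences between the reagents were also tested directly. At stage 8 and at stage 10.5, 0 of the 12 were called, where 0.00615% and 0.55% of all probe sets were. At an unadjusted p under 0.05 limma counted 0 members at each stage, against 794 and 2676 of all 32539 probe sets. With the block that threshold counted 1 member at stage 8 and 2 at stage 10.5, against 3583 and 7489 of all probe sets. The largest difference of MO1 minus MO2+MO3 at stage 10.5 was -0.38 ± 0.33 for lefty.S. With the block, where 0.381% of all probe sets were called at stage 8 and 9.75% at stage 10.5, it was -0.38 ± 0.18 (adjusted p = 0.25), and again 0 members were called.

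The change of a reagent's effect from stage 8 to stage 10.5 was tested as an interaction for each reagent. Without the block 0 of 12 were called for either reagent, against 0.0215% of all probe sets for MO1 and 0.00922% for MO2+MO3. At an unadjusted p under 0.05 limma counted 0 members for MO1 and 1 for MO2+MO3, nodal6.S with 0.59 ± 0.22. Of all 32539 probe sets, that threshold counted 1541 for MO1 and 1482 for MO2+MO3. With the block it counted 4 members for MO1 and 6 for MO2+MO3, against 5941 and 5883 of all probe sets. The lowest nodal6.S array was at 2 to 4 before centring at each stage, in the range of the negative controls.

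With the block, 2 of 12 were called for MO2+MO3, where 3.84% of all probe sets were, and 0 for MO1, where 4.16% were. These were nodal3.1.L with 0.75 ± 0.15 (limma, adjusted p = 0.0375) and the nodal5 shared set with 0.65 ± 0.14 (0.0474). For nodal3.1.L MO2+MO3 lay below CoMO in both pairs at stage 8, by -0.38 and -0.37, and above it in both pairs at stage 10.5. For the nodal5 shared set it lay below CoMO by -0.52 and -0.48 at stage 8, and differed by -0.03 and 0.33 at stage 10.5. Each call was lost on leaving out any of 11 of the 12 arrays, with adjusted p from 0.0517 to 0.166 for nodal3.1.L and from 0.0548 to 0.192 for the nodal5 shared set. The first was kept only without CoMO replicate 1 of stage 10.5 (0.0241) and the second only without MO2+MO3 replicate 1 of stage 10.5 (0.0451). With the number as a random block the adjusted p was 0.135 for each.

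Replicates of one injection were far apart for many members, and the replicate term of the blocked fit was tested after these values were seen. At stage 10.5 it was called for 8 of 12 members, where 33.7% of all probe sets were called: 7 were higher in replicate 1, against 17.4% of all probe sets, and 1 was lower, against 16.3%. For nodal.L replicate 1 was higher by 1.03 ± 0.09 (limma, adjusted p = 6.9e-05), for nodal1.L by 0.94 ± 0.11 (0.00028), for nodal2.L by 0.92 ± 0.12 (0.00059) and for nodal3.1.L by 0.59 ± 0.09 (0.0012). The nodal3 shared set, lefty.L and nodal3.2.L were higher by 0.57, 0.50 and 0.27. The exception, lefty.S, was lower by -0.64 ± 0.15 (adjusted p = 0.01).

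The members with this pattern were the mesendoderm inducers, the organizer nodals and lefty, and none of the 4 nodal5 and nodal6 probe sets was called for the replicate term at stage 10.5. At stage 8 the term was called for 4 of 12 members, where 27.6% of all probe sets were. All 4 were lower in replicate 1, against 14.1% of all probe sets lower and 13.5% higher. They were the nodal5 shared set (-0.58 ± 0.08), nodal6.L (-0.58 ± 0.15), the xnr5-6 probe set (-0.51 ± 0.11) and nodal3.1.L (-0.45 ± 0.09). Only nodal3.1.L was called at both stages, with opposite signs; the labels do not say that a replicate number means the same at both stages. On the 7 higher members of stage 10.5 all 3 replicate 1 arrays lay above all 3 replicate 2 arrays, where 15.7% of all probe sets had that arrangement, and 15.1% had the reverse, as lefty.S did. At stage 8 the arrays separated with replicate 1 lower for the same 4 called members, against 20.6% of all probe sets, and with replicate 1 higher for 0 members, against 18.9%.

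**Figure D3:**
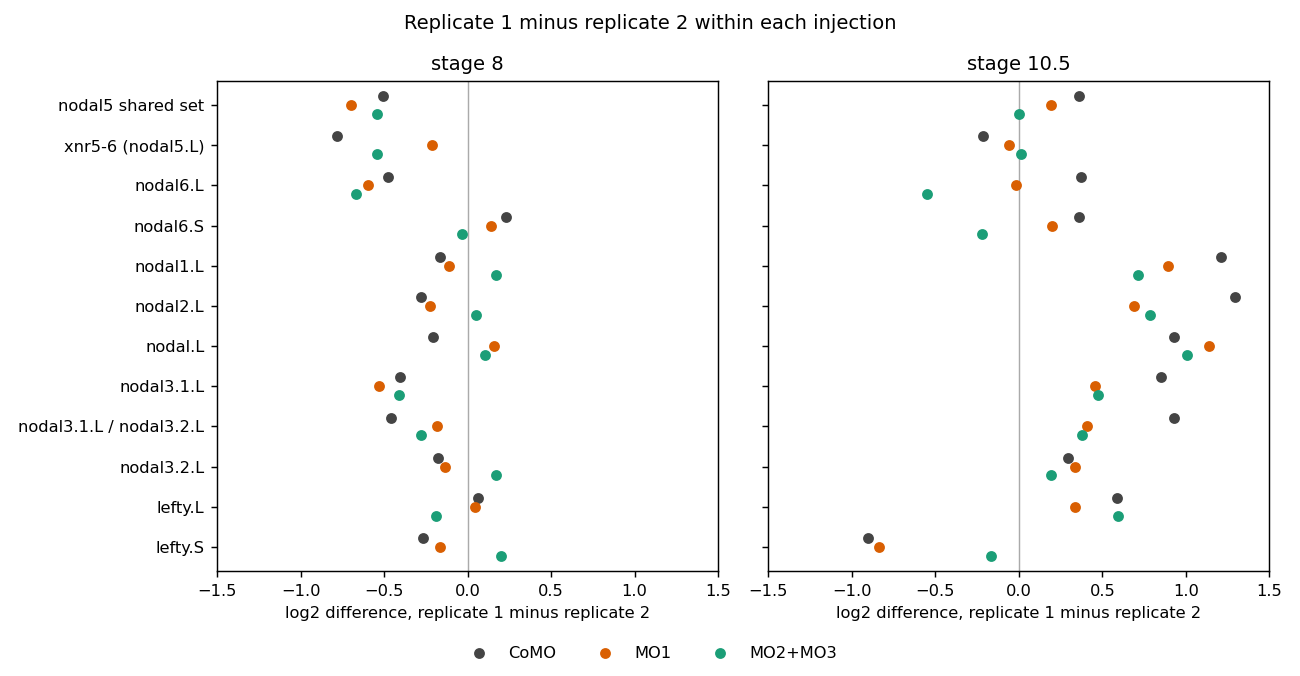
Log2 difference of replicate 1 minus replicate 2 within each injection (colours) for the 12 nodal and lefty probe sets, at stage 8 (left) and stage 10.5 (right). At stage 10.5 the 3 injections lie on the positive side for nodal1.L, nodal2.L, nodal.L, the nodal3 probe sets and lefty.L, and on the negative side for lefty.S; at stage 8 they lie on the negative side for the nodal5 shared set, xnr5-6, nodal6.L and nodal3.1.L.

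Across the 6 arrays of stage 10.5, which share this replicate difference, nodal1.L varied with nodal2.L (Pearson r = 0.979), nodal.L (0.944) and lefty.L (0.932), and opposite to lefty.S (-0.887). The correlation of nodal3.1.L with the nodal3 shared set was 0.984. Markers of embryo regions were counted for the same replicate term, for which 17.4% of all probe sets were called higher and 16.3% lower. Of 19 probe sets of vegetal endoderm markers, 18 were lower in replicate 1 at stage 10.5 and 0 higher, with a median of -0.87, opposite to nodal1.L, nodal2.L and nodal.L. Their part in the nodal differences was not tested. Of 19 maternal RNA probe sets 9 were higher (47.4%) and 3 lower. Of the dorsal organizer markers 1 of 14 was higher and 5 lower (35.7%). For ventral and marginal mesoderm, with 0 higher and 4 of 20 lower, and animal ectoderm, with 1 and 3 of 16, the shares called in all were below that of all probe sets.

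By likeness over all 12 arrays, the named probe sets closest to nodal3.1.L were lmx1b.1.S (Pearson r = 0.945), rraga.S (0.944) and lonrf1.S (0.940). Those closest to the nodal5 shared set were odf2.L (0.946), stard7.L (0.928) and stat3.2.L (0.913). These are descriptions, chosen as the highest among probe sets that name a single gene, with only the highest of each gene kept. All nodal and lefty probe sets were left out of this ranking, the nodal3 shared set included. The replicate difference is part of each correlation.

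The rest of the pathway was described with 6 lists of genes, by counts and medians. Without the block acvr1b.S, a type I receptor for nodal and activin, was the only probe set of the 6 lists called at stage 10.5. It rose by 0.71 ± 0.12 in MO1 (limma, adjusted p = 0.0387). Of all probe sets 0.916% were called in MO1 and 0.907% in MO2+MO3 in that fit, so 1 call says little about the lists. With the block acvr1b.S was called in both reagents, at 0.71 in MO1 and 0.36 in MO2+MO3. The counts that follow are with the block at stage 10.5, where 8.48% of all probe sets were called higher and 7.75% lower in MO1, and 9.02% and 7.77% in MO2+MO3.

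Of the 17 probe sets of ligand partners and processing enzymes, 2 rose and 1 fell in MO1, and 1 rose and 1 fell in MO2+MO3. The gene that fell in both was gdf3.S (derriere), a TGF-beta ligand of the frog mesoderm, with -0.54 ± 0.09 and -0.60 ± 0.09 (limma with the block, adjusted p = 0.00457 and 0.00297). Of the 10 probe sets of receptors and co-receptors, 1 rose in MO1, and 2 rose and 1 fell in MO2+MO3. Besides acvr1b.S these were tdgf1.1.L, an EGF-CFC co-receptor, with 0.53 in MO2+MO3, and the type II receptor acvr2b.S with -0.61; in MO1, where neither was called, their changes were 0.04 and -0.30. Each has 2 probe sets in the list and was called on 1; in MO2+MO3 the other probe set stood at 0.011 for tdgf1.1.L and -0.12 for acvr2b.S.

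Of the 22 probe sets of intracellular effectors, 10 rose and 1 fell in MO1, and 4 rose and 0 fell in MO2+MO3, with medians of 0.32 and 0.06. The forkhead partner of Smad2, foxh1.L, rose in both, by 0.61 and 0.36, on 1 of its 2 probe sets. The other had 0.31 in MO1 and -0.17 in MO2+MO3 and was not called. Of the 3 probe sets of trim33.L, which codes for a ubiquitin ligase that acts on Smad complexes, 2 rose in both reagents. They had 0.39 and 0.40 in MO1, and 0.51 and 0.37 in MO2+MO3. Of the 13 probe sets of antagonists other than lefty, 1 rose and 2 fell in MO1, and 0 rose and 2 fell in MO2+MO3. The secreted nodal, Wnt and BMP antagonist cer1.S fell in both on 1 probe set, with -1.89 ± 0.16 and -1.16 ± 0.16; its second probe set had -1.14 and -0.55, and was called only in MO1 (adjusted p = 0.0029 and 0.0553).

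Of the 25 probe sets of the list of upstream maternal regulators, 3 rose and 1 fell in MO1, and 6 rose and 1 fell in MO2+MO3. Whether the genes of this list act on the nodal genes was not tested. The rises in both were pou5f3.3.L, a maternal POU factor, with 1.14 and 1.45, and foxi2.L and foxi2.S, maternal forkhead factors of the animal hemisphere, with 0.69 and 0.51, and 0.44 and 0.56. The fall in both was pou5f3.1.L, another POU factor, with -0.72 and -1.23 on 1 of its 2 probe sets; the other had -0.22 and -0.26 and was not called. Of the 70 probe sets of mesendoderm targets, 0 rose and 25 fell in MO1, with a median of -0.36, and 1 rose and 15 fell in MO2+MO3, with a median of -0.14. In both reagents 13 fell, among them the muscle determination factor myf5.L with -1.99 and -1.45, the T-box factor tbxt.2.S with -2.07 and -1.27, and msgn1.L, a paraxial mesoderm factor, with -1.04 and -1.78. Without the block 0 of these 70 were called, where 0.916% of all probe sets were in MO1 and 0.907% in MO2+MO3. With so few called, that 0 says little about the list.

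**Figure D4:**
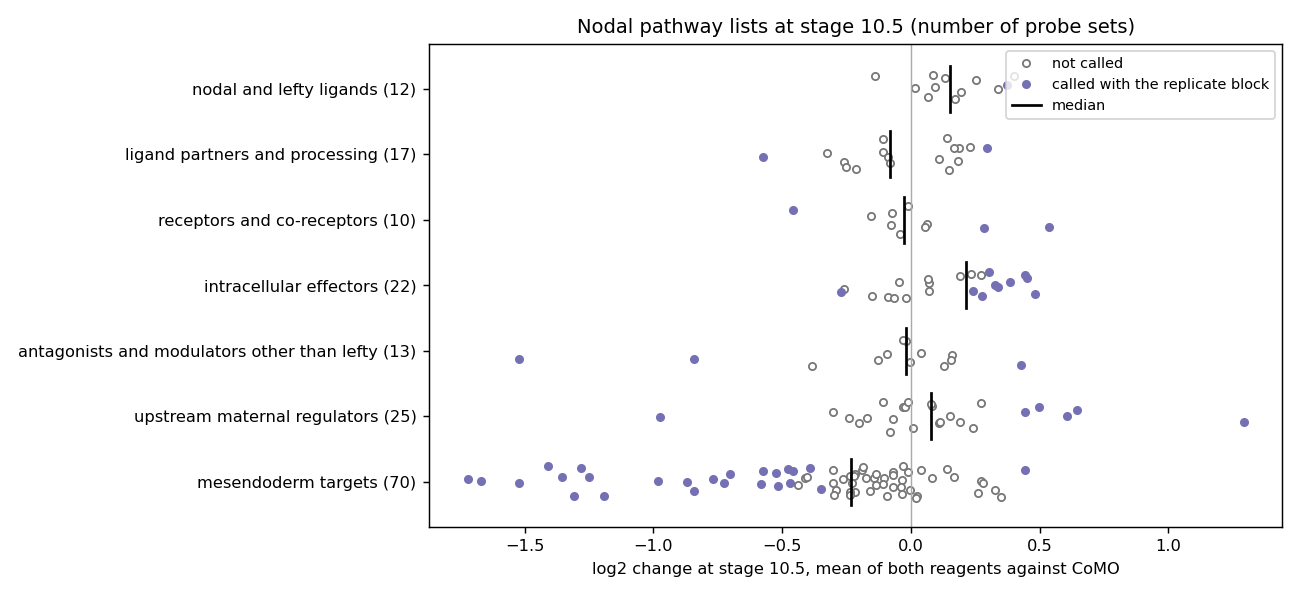
Log2 change at stage 10.5 for the mean of both reagents against CoMO (horizontal axis) for the nodal and lefty probe sets and 6 pathway lists (rows, number of probe sets in brackets); filled points were called with the replicate block and black bars are medians. The ligands, with a median of 0.15 and 1 of 12 called, lie to the right of the mesendoderm targets, with a median of -0.23 and 24 of 70 called lower. Over all probe sets 19.1% were called, 10.0% higher and 9.1% lower. Beside that background, a count of 1 of 12 says little about the ligands.

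At stage 8, with the block, 0 probe sets of the ligand partner, receptor, effector, antagonist and upstream lists were called in either reagent. Over all probe sets 0.123% were called in MO1 and 0.141% in MO2+MO3 at this stage. Of the mesendoderm targets 1 of 70 was called, wnt8a.L, a Wnt ligand of the ventral and lateral margin, with -0.68 ± 0.08 in MO2+MO3 (limma, adjusted p = 0.0255) and -0.54 in MO1 (0.0743). Region markers at stage 10.5 with the block fell in 11 of 19 probe sets of vegetal endoderm in MO1 and 7 in MO2+MO3, in 5 and 2 of 14 of the dorsal organizer, in 8 and 5 of 20 of ventral and marginal mesoderm, and in 8 and 7 of 16 of animal ectoderm. Rises were called in 0 of the vegetal endoderm and organizer probe sets, in 1 of ventral and marginal mesoderm in each reagent, and in 2 of animal ectoderm in MO1 and 0 in MO2+MO3. Of the maternal RNA list 7 and 4 of 19 rose and 0 fell. Over all probe sets 7.75% were called lower and 8.48% higher in MO1 at stage 10.5 with the block. In MO2+MO3 these shares were 7.77% and 9.02%. The lists share genes with the mesendoderm targets, and their part in the nodal and lefty values was not tested.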

How the data were processed

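The authors deposited 1 table of log values, taken here as log2. Per the submitters' processing notes RMA made them; a version and the log base are not given in the sources used here. The deposited values are centred on the median of each stage. After 96 control probe sets were removed, 32539 were tested. Symbols came from the platform annotation, checked against a v10.1 gene table; no coordinates are printed, since the array's build is not given in the sources used here. The 12 arrays were modelled together in limma 3.58.1 (R 4.3.3), with a coefficient for each group, eBayes and two-sided moderated tests. The number of arrays limits the precision. Pairing by replicate number was inferred from the values, since the labels do not state it. Over probe sets, same-numbered arrays of a stage had deviations that correlated at 0.821 to 0.864 in all 6 pairs of groups. A second fit therefore blocked on the number, separately in each stage; it lowered the median residual SD from 0.175 (6 degrees of freedom) to 0.104 (4). P-values rest on the spread between arrays of a group, pooled over both stages and moderated over all probe sets. In the blocked fit the shared difference between replicate numbers is taken out of that spread. The model was tested on simulated data. Recovered levels below 4 were taken as near the negative controls. The members, lists and tests were chosen with earlier results of these data known. All members are named; list genes were named where called in both reagents with the same sign, or otherwise by the largest changes. Alternatives covered scaling, block, probe sets tested, variance model and each array left out.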

Additional observations from a re-analysis of the deposited data

Results flagged for a closer look

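The interaction test of MO2+MO3 with stage called 2 nodal probe sets in the limma fit with the replicate block, and it was chosen with the stage medians of these data known, so it is not independent support for them. For nodal3.1.L the effect was higher at stage 10.5 than at stage 8 by 0.75 (adjusted p = 0.0375), and for the nodal5 shared set by 0.65 (adjusted p = 0.0474). Without the block the adjusted p was 1 for each, and with a random block 0.135 for each. With 1 array left out and the block, the adjusted p ranged from 0.0241 to 0.166 for nodal3.1.L, and from 0.0451 to 0.192 for the nodal5 shared set, and leaving out any of 11 of the 12 arrays ended each call. Groups of 2 arrays are too small for a search for outlying samples.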

How the results depend on the processing

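With limma, 0 of the 12 members were called at stage 8 in each of the 3 comparisons with CoMO and between the reagents, under every alternative run, the replicate block included. At stage 10.5 the replicate block, with or without array medians subtracted, gave 1 for MO2+MO3 and 1 for the mean of both reagents, and 2 for the interaction of MO2+MO3. On symbol means the block gave 1 for MO1, 1 for MO2+MO3, 1 for the mean and 1 for the interaction of MO2+MO3. With dim probe sets left out, which drops nodal6.L, nodal6.S, nodal3.2.L and xnr5-6, the block gave 1, 1, 1 and 3; this combination and the replicate term were chosen after seeing the data, and the replicate count at stage 8 moved from 4 to 2, since 2 of those called were no longer tested. With 1 array left out, with and without the block, the counts ranged from 0 to 3 for MO1, 0 to 3 for MO2+MO3, 0 to 4 for the mean of both, 0 to 1 between the reagents, 0 to 1 for the interaction of MO1 and 0 to 3 for that of MO2+MO3. The counts of 3, 3 and 4 came without CoMO replicate 1 of stage 10.5, with the block, and were 0 without CoMO replicate 2. With the replicate number as a random block 0 members were called in each of these comparisons. Quantile normalization turned the sign of the mean change at stage 10.5 of nodal1.L to -0.038, of the nodal5 shared set to -0.025 and of lefty.L to -0.0196. With 1 array left out the mean change at stage 10.5 ranged from -0.52 to 0.69 for nodal1.L, -0.39 to 0.90 for nodal2.L, -0.28 to 0.62 for lefty.S, -0.60 to 0.33 for nodal.L, -0.0156 to 0.20 for xnr5-6, -0.17 to 0.20 for the nodal5 shared set, -0.055 to 0.32 for nodal6.S, -0.23 to 0.36 for lefty.L, -0.053 to 0.80 for nodal3.1.L (in MO1 alone -0.057 to 0.79 and in MO2+MO3 alone -0.048 to 0.80) and -0.13 to 0.80 for the nodal3 shared set. At stage 8 it ranged from -0.0615 to 0.22 for nodal2.L, -0.52 to 0.27 for xnr5-6, -0.44 to 0.0296 for nodal6.L and -0.39 to 0.0099 for nodal3.1.L. Each of these extremes came from leaving out a CoMO array. Of 120 member changes, 72 turned sign under at least 1 of 36 alternatives, and in 0 of these cases was a call involved. A lone array in a group was assumed to vary like the other groups. The cause of these shifts was not tested. Pairs of arrays limit every comparison here, and members near the negative controls could hide a fall.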
